A study of Mus musculus with 8 samples.

Results

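Collagen genes were followed in MC903-treated mouse back skin that had received propionic acid or a control application. The 44 genes described are all rows of the expression table whose symbol has the form of a collagen alpha chain (Col, a number, a, a number), of 25378 genes in all. They fall into 11 fibrillar chains, 10 chains of the basement membrane and its anchoring zone, and 23 other chains. The propionic acid group had 4 mice and the control group 4 mice. All 8 were wild-type C57BL/6 females aged 6 weeks, and all had 5 nmol of MC903 put on the back daily for 10 days. MC903, also called calcipotriol, is a vitamin D analog that gives mouse skin an inflammation resembling atopic dermatitis. In the propionic acid group this short-chain fatty acid was put on the skin at 1 mM, 1 h after MC903. The control group received a control application whose content the labels do not state. Lesions were collected on day 11 and sequenced in bulk. Skin without MC903 was not analysed here, so the levels below are those of inflamed skin only.

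Collagens are secreted proteins built from alpha chains that wind around each other in a helix of repeated glycine-X-Y units. Fibrillar collagens I, III and V form the load-bearing fibrils of the dermis and are made mainly by fibroblasts. Type IV collagen forms the sheet of basement membranes, while type VII anchors the epidermal sheet to the dermis and type XVII spans the membrane of basal keratinocytes. Type VI makes beaded filaments around cells, and fibril-associated collagens such as XII and XIV sit on the surface of fibrils.

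The chains of type IV collagen lie head to head in pairs. In GRCm38.p6 (the RefSeq table's build), Col4a1 starts at 11312826 on the minus strand of chromosome 8 and Col4a2 starts at 11312805 on its plus strand, so the first 22 transcribed bases of the genes overlap. This stretch is shown because the ratio of the pair, described below, was the 1 of 5 chain ratios that separated the groups. It is the 30 bases chr8:11312801-11312830, read on the plus strand in the direction of Col4a2, with the overlap in capitals.
Col4a1 and Col4a2 start sites: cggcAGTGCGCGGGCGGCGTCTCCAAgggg
The 250 bases before the start of Col3a1 (chr1:45311288-45311537, plus strand) and of Col7a1 (chr9:108953336-108953585, plus strand) are shown as the chain with the highest mean level and the chain with the smallest p. Capitals mark the CCAAT box, the GC box (GGGCGG) and the TATA box (searched as TATAAA), each looked for on both strands and without regard to overlap.
Col3a1: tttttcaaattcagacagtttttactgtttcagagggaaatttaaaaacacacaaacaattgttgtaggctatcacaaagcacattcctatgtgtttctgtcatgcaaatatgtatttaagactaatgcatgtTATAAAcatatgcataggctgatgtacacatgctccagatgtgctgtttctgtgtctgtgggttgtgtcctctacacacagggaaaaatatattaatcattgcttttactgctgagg
Col7a1: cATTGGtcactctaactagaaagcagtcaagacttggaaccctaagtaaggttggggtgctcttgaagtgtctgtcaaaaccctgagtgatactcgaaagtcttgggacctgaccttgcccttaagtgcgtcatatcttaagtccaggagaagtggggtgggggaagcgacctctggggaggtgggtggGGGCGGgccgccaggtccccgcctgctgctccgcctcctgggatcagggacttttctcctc
RefSeq promoters were found for 35 of the 44 genes, with 38 start sites. The GC box was in 22 of these 38 stretches (57.9%), against 32.7% of all 32851 start sites. The CCAAT box was in 13 (34.2%, against 33.8% of all) and the TATA box in 5 (13.2%, against 12.4% of all). These are letter matches and not binding sites.

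Levels are FPKM, fragments scaled to gene length and sequencing depth, which allows levels of different genes to be set side by side. Recovered totals were 39034193 to 40194111 reads per library. Of the 44 collagen genes, 23 reached 1 FPKM in at least 4 libraries and were tested, and 19 of them reached it in all 8. The other 21 were lower. The differences were tested with limma on log2(FPKM + 1) across all 12598 genes that passed this filter, and adjusted p values are Benjamini-Hochberg values over all of them. The labels call the samples biological replicates, taken here as separate mice. In bulk skin, fewer cells of a type and less RNA per cell cannot be told apart.

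None of the 23 tested collagen genes differed between the groups beyond the spread of the mice. Of the 23 tested, 0 passed an adjusted p of 0.05, where the background was 0.0% of all genes tested, and the adjusted p values were 0.807 to 0.967. An unadjusted p under 0.05 was reached by 0 of 23 as well, against 6.29% of all genes tested, and by 0 of 23 with voom on recovered reads. The values of the groups overlapped for all 23, whereas 3.16% of all genes tested had groups that did not overlap. By direction alone, 20 of the 23 had a lower and 3 a higher log2 mean in propionic acid skin, against 48.3% of all genes tested on the lower side. The median log2 fold change was -0.30, beside 0.006 over all genes tested. It depended on single libraries, at -0.118 without control replicate 1, -0.142 without propionic acid replicate 1 and -0.475 without propionic acid replicate 3. Without control replicate 1, 16 of 22 tested collagen genes were on the lower side. Without propionic acid replicate 3, 5 of 21 had an unadjusted limma p under 0.05 (Col4a2, Col5a2, Col6a1, Col6a2 and Col6a3), against 7.85% of all genes, and 0 passed after adjustment.

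**Figure D1:**
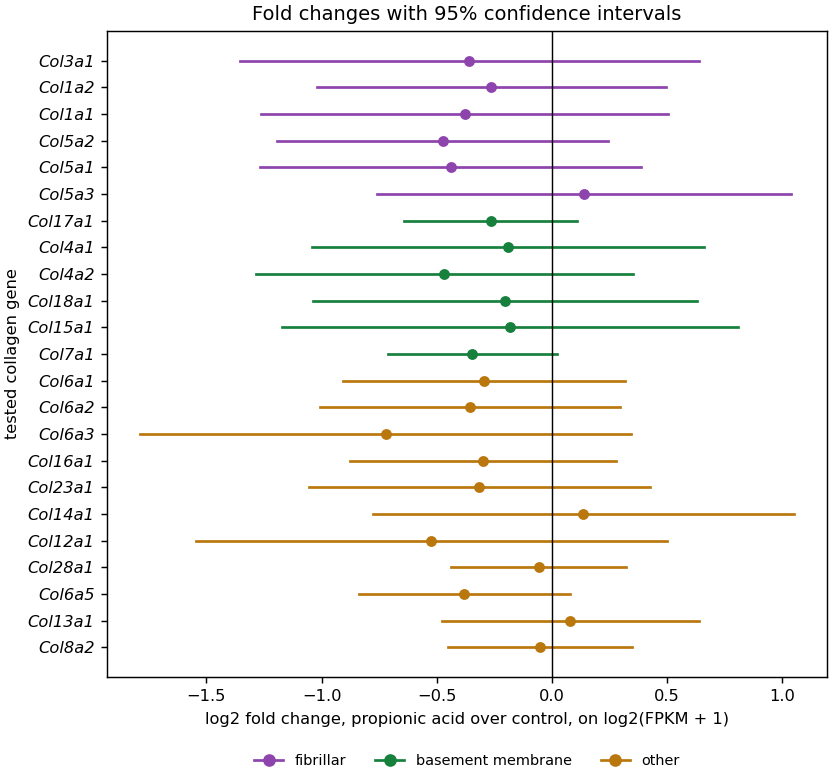
Log2 fold change (x axis, propionic acid over control, on log2(FPKM + 1)) of the 23 tested collagen genes, with 95% confidence intervals from limma (bars) and colours for fibrillar, basement membrane and other chains. Points lie mostly left of 0, with 20 of 23 lower in propionic acid skin, and all 23 intervals include 0.

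The fibrillar chains made up most of the collagen signal. Summed over its 11 genes, the class had 690.0, 973, 1796 and 1132 FPKM in propionic acid replicates 1 to 4, against 2379, 1815, 1027 and 803 in control replicates 1 to 4. The class held 74.1% to 80.3% of all collagen FPKM in propionic acid skin and 69.9% to 85.1% in control skin. Of the 6 fibrillar genes tested, 5 were on the lower side and 1, Col5a3, on the higher side, with a median log2 fold change of -0.37.

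Col1a1 encodes the alpha 1 chain of type I collagen, the main protein of the dermis (chromosome 11, 94936224 to 94953042 in mm10). It had 176, 253, 449.8 and 302 FPKM in propionic acid replicates 1 to 4, against 630.4, 520.4, 240.0 and 221 in control replicates 1 to 4. The groups overlapped widely, since control replicates 3 and 4 lay below propionic acid replicates 2, 3 and 4. The means were 295 ± 115 and 403 ± 204 FPKM in propionic acid and control skin (SD, n = 4 each). The log2 fold change was -0.38 with an SE of 0.39 (limma adjusted p = 0.892). With single libraries left out it was between -0.618, without control replicate 4, and -0.115, without control replicate 1.

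Col1a2, which supplies the alpha 2 chain of the same molecule (chromosome 6, 4504814 to 4541544), followed the same order of mice at the top. It had 251, 309, 529 and 385 FPKM in propionic acid replicates 1 to 4, against 646, 621, 278 and 293 in control replicates 1 to 4. Its log2 fold change was -0.26 with an SE of 0.34 (limma adjusted p = 0.908).

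Col3a1 forms the homotrimer of type III collagen, which is laid into fibrils beside type I. It had the highest mean level of all collagen genes, with 228, 366, 723 and 398 FPKM in propionic acid replicates 1 to 4, against 988, 606, 442 and 246 in control replicates 1 to 4. Control replicate 4 was lower than 3 of the 4 propionic acid libraries. The log2 fold change was -0.36, with a 95% confidence interval of -1.36 to 0.64 (limma adjusted p = 0.903). It was -0.704 without control replicate 4 and -0.037 without control replicate 1.

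Type V collagen starts fibrils and limits their width. Col5a1 had 8.58, 11.1, 23.6 and 11.8 FPKM in propionic acid replicates 1 to 4, against 33.0, 20.3, 13.8 and 10.4 in control replicates 1 to 4. Its partner Col5a2 had 21.7, 29.1, 57.5 and 30.2 in propionic acid replicates 1 to 4, against 70.6, 43.5, 47.9 and 28.8 in control replicates 1 to 4. In both genes propionic acid replicate 3 and control replicate 1 were the highest of their groups. Their log2 fold changes were -0.44 (SE 0.37) and -0.47 (SE 0.32), with limma adjusted p values of 0.878 and 0.852. Col5a2 lies near Col3a1 on chromosome 1, at 45374321 to 45503282 on the opposite strand, while Col3a1 spans 45311538 to 45349706.

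**Figure D2:**
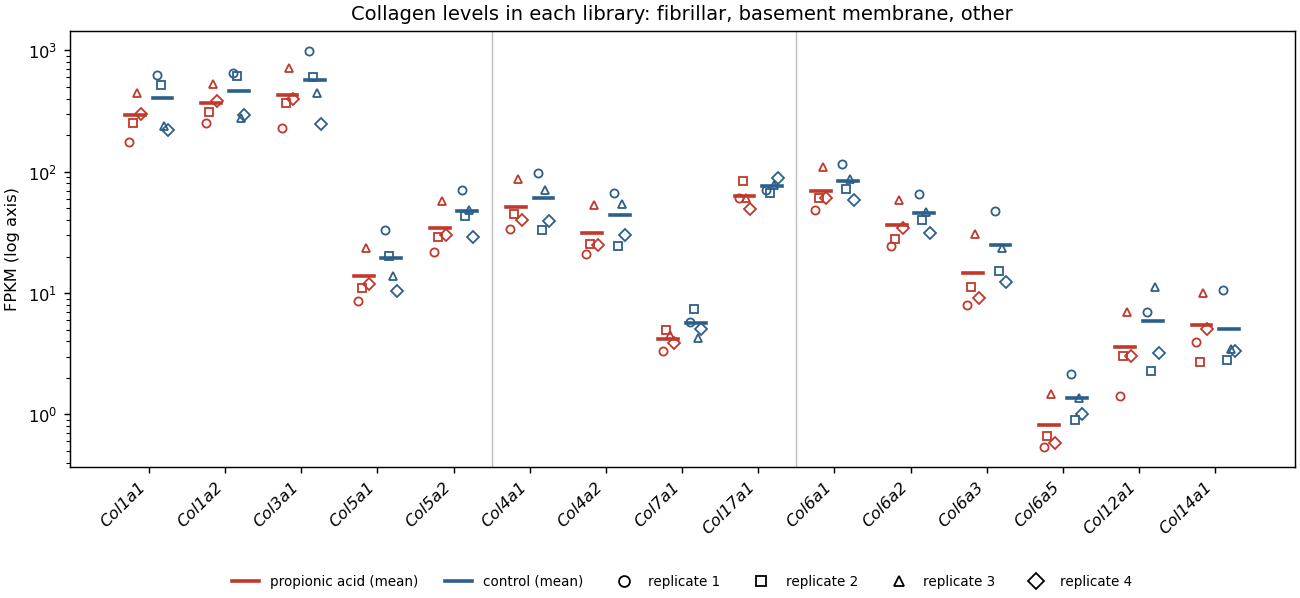
FPKM (y axis, log scale) of 15 collagen genes in each library, with propionic acid in red left of control in blue, a symbol per replicate number and a bar at the group mean. Col1a1, Col1a2 and Col3a1 lie highest, and for every gene shown the symbols of both groups overlap.

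In the basement membrane class, 6 of 10 genes were tested and all 6 were on the lower side, with a median log2 fold change of -0.23. The summed level of the class was 134, 181, 249 and 135 FPKM in propionic acid replicates 1 to 4, against 293, 149, 231 and 182 in control replicates 1 to 4. Col4a1 and Col4a2, the chains found in nearly all basement membranes, dominated its type IV part. Col4a1 had 33.9, 44.7, 87.9 and 39.9 FPKM in propionic acid replicates 1 to 4, against 98.1, 33.4, 70.1 and 39.4 in control replicates 1 to 4. The groups were interleaved, and the log2 fold change was -0.19 with an SE of 0.38 (limma adjusted p = 0.943). Col4a2 had 21.0, 25.2, 53.4 and 25.1 FPKM in propionic acid replicates 1 to 4, against 67.2, 24.6, 54.3 and 29.96 in control replicates 1 to 4. Here too the groups overlapped, and the log2 fold change was -0.47 with an SE of 0.36 (limma adjusted p = 0.874). Without control replicate 1 the log2 fold change of Col4a1 was 0.085.

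Although neither gene separated the groups, the ratio of the pair did. Col4a1 FPKM divided by Col4a2 FPKM was 1.61, 1.77, 1.64 and 1.59 in propionic acid replicates 1 to 4, against 1.46, 1.36, 1.29 and 1.32 in control replicates 1 to 4. Every propionic acid mouse had a higher ratio than every control mouse. The means were 1.66 ± 0.081 in propionic acid and 1.36 ± 0.074 in control skin (SD, n = 4 each), a log2 difference of 0.29. The exact permutation test over the 70 regroupings gave a 2-sided p of 0.0286, the smallest that 4 mice against 4 allow. Adjusted over the 5 chain ratios examined, the exact permutation p was 0.143. With 4 mice a group, a ratio that alone had this smallest p could not reach 0.05 after this Benjamini-Hochberg adjustment, whatever its difference. The ratio does not depend on library scaling. It rests on 8970 to 23047 recovered reads of Col4a1 and 5425 to 13666 of Col4a2 in propionic acid skin, against 8861 to 26048 and 6367 to 17397 in control skin. With any 1 library left out, the log2 difference was 0.25 to 0.32. Antisense genes are annotated over both loci (Gm15418 and Gm15419), and whether the counting used strand is not given in the sources used here, so their reads cannot be told apart from those of the pair.

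For the other 4 ratios the groups overlapped. Col1a1 to Col1a2 was 0.789 ± 0.065 in propionic acid and 0.858 ± 0.091 in control skin (SD, n = 4 each; exact permutation p = 0.314, adjusted 0.619). Col3a1 to Col1a1 was 1.42 ± 0.142 in propionic acid and 1.42 ± 0.344 in control skin (exact permutation p = 0.914, adjusted 0.971), with 1.84 in control replicate 3 and 1.12 in control replicate 4. Col5a1 to Col5a2 was 0.394 ± 0.012 in propionic acid and 0.396 ± 0.087 in control skin (exact permutation p = 0.971, adjusted 0.971), so the control mice were spread more widely around nearly the same mean. For Col6a1 to Col6a2 the values were 1.93 ± 0.174 in propionic acid and 1.83 ± 0.049 in control skin (exact permutation p = 0.371, adjusted 0.619). Partner chains kept a steadier relation within a mouse than either gene did across mice: over the 8 libraries the ratio of Col1a1 to Col1a2 spanned 1.39-fold, while Col1a1 itself spanned 3.58-fold.

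**Figure D3:**
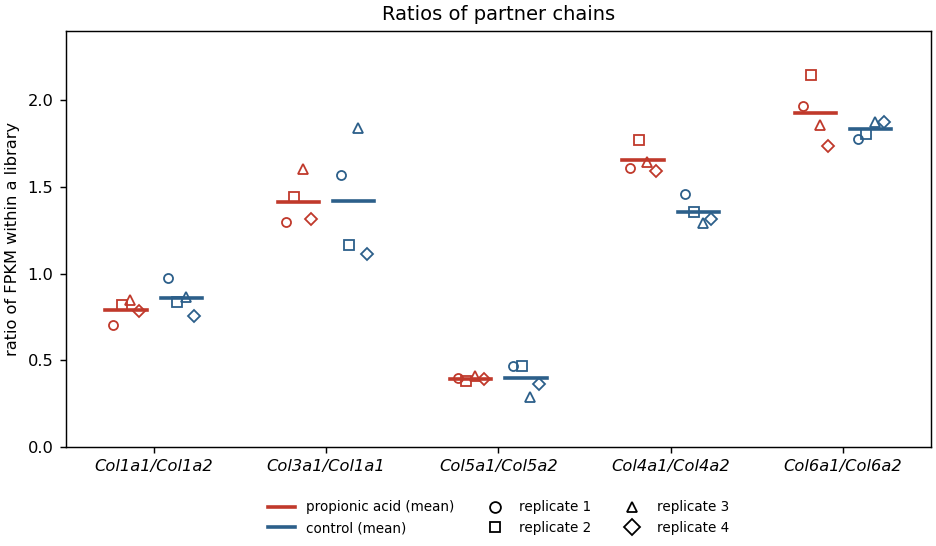
Ratio of FPKM of partner collagen chains within each library (y axis), propionic acid in red left of control in blue, with a symbol per replicate number and a bar at the mean. For Col4a1/Col4a2 the propionic acid values (1.59 to 1.77) all lie above the control values (1.29 to 1.46), and the other 4 ratios overlap.

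The chains that tie the epidermis to the dermis did not show the order of mice seen in the dermal chains. Col7a1, the anchoring fibril chain (chromosome 9, 108953586 to 108984875), had 3.32, 4.92, 4.54 and 3.90 FPKM in propionic acid replicates 1 to 4, against 5.74, 7.37, 4.30 and 5.05 in control replicates 1 to 4. Control replicate 3 lay among the propionic acid values. Col7a1 had the smallest p of the 23 tested, with means of 4.17 ± 0.707 and 5.62 ± 1.31 FPKM in propionic acid and control skin (SD, n = 4 each). The log2 fold change was -0.34 with an SE of 0.16 (limma adjusted p = 0.807).

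Col17a1, the collagen of hemidesmosomes in basal keratinocytes (chromosome 19, 47646344 to 47692094), had 60.9, 84.1, 60.3 and 49.0 FPKM in propionic acid replicates 1 to 4, against 70.4, 66.2, 77.7 and 88.3 in control replicates 1 to 4. It had the narrowest span of the tested collagens, 1.80-fold from the lowest to the highest library. Its log2 fold change was -0.27 with an SE of 0.17 (limma adjusted p = 0.848). Summed over 10 basal keratinocyte markers, all of them tested and present in every library, the level was 4665 to 6058 FPKM in propionic acid and 4512 to 7374 FPKM in control skin, so the labelled tissue held epidermis in every sample. Krt14 was the largest part of this sum in every library, with a log2 fold change of 0.025. Of these markers 7 were on the lower and 3 on the higher side. For Krt5 the groups did not overlap, as for 3.16% of all genes tested. Krt5 had 894 to 1045 FPKM in propionic acid and 1056 to 1506 in control skin. Only Lamb3 had an unadjusted limma p under 0.05 (log2 fold change -0.309), against 6.29% of all genes tested. The part of these markers in the Col17a1 values was not tested.

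Col15a1 and Col18a1, which carry heparan or chondroitin sulfate chains in the basement membrane zone, had 6.51 to 22.4 and 6.49 to 17.8 FPKM in propionic acid skin, against 7.77 to 26.2 and 7.36 to 23.8 in control skin. The remaining type IV chains were below the filter. Col4a5 averaged 0.808 ± 0.238 FPKM in propionic acid and 0.872 ± 0.276 in control skin. Col4a3, Col4a4 and Col4a6 averaged 0.290, 0.536 and 0.414 FPKM in propionic acid skin, against 0.230, 0.387 and 0.306 in control skin. All of these overlapped between groups.

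In the remaining class, 11 of 23 genes were tested, 9 on the lower and 2 on the higher side, with a median log2 fold change of -0.30. All 4 tested chains of type VI collagen were on the lower side. Col6a1 had 48.0, 60.2, 109 and 60.4 FPKM in propionic acid replicates 1 to 4, against 116, 72.2, 87.5 and 59.0 in control replicates 1 to 4. Col6a2, also on chromosome 10, had 24.3, 28.0, 58.8 and 34.7 in propionic acid replicates 1 to 4, against 65.5, 39.9, 46.6 and 31.5 in control replicates 1 to 4. The groups overlapped for both, with log2 fold changes of -0.29 (SE 0.27) and -0.36 (SE 0.29) and limma adjusted p values of 0.886 and 0.878.

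Col6a3, the long chain that completes the common type VI molecule and is cut to release endotrophin, had the most negative fold change of the tested collagens on the log2(FPKM + 1) scale. With voom on recovered reads it was -0.769 on the log2 scale, and that of Col6a5 was -0.787. It had 7.97, 11.2, 30.6 and 9.05 FPKM in propionic acid replicates 1 to 4, against 47.7, 15.2, 23.4 and 12.4 in control replicates 1 to 4. Propionic acid replicate 3 lay above 3 of the 4 control libraries, and the other 3 propionic acid libraries lay below all controls. The log2 fold change was -0.72, with a 95% confidence interval of -1.79 to 0.35 (limma adjusted p = 0.848). Leaving out propionic acid replicate 3 gave -1.125 and leaving out control replicate 1 gave -0.35. Col6a5, a chain that can take the place of Col6a3, had 0.539, 0.663, 1.47 and 0.583 FPKM in propionic acid replicates 1 to 4, against 2.17, 0.892, 1.38 and 1.01 in control replicates 1 to 4. The same propionic acid mouse stood inside the control range, and the limma adjusted p was 0.828 with a log2 fold change of -0.38, or -0.706 with a pseudocount of 0.1 in place of 1. Col6a5 passed the filter through 1 propionic acid and 3 control libraries.

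Of the 3 fibril-associated collagens tested, Col12a1 varied most. It had 1.43, 3.04, 6.95 and 3.01 FPKM in propionic acid replicates 1 to 4, against 6.95, 2.28, 11.2 and 3.18 in control replicates 1 to 4, a span of 7.88-fold over the 8 mice. Its highest control value was that of replicate 3, unlike the dermal fibrillar chains. Col14a1 had 3.96, 2.72, 9.99 and 5.07 FPKM in propionic acid replicates 1 to 4, against 10.6, 2.80, 3.46 and 3.31 in control replicates 1 to 4. The log2 fold changes were -0.52 (SE 0.46) and 0.14 (SE 0.41), with limma adjusted p values of 0.881 and 0.962, and that of Col14a1 turned to -0.161 when propionic acid replicate 3 was left out and to -0.032 when control replicate 2 was. Col16a1 averaged 17.2 ± 5.12 FPKM in propionic acid and 21.8 ± 7.25 in control skin. The transmembrane chain Col23a1 averaged 8.11 ± 2.47 and 10.9 ± 5.58 FPKM in propionic acid and control skin, and Col13a1, another transmembrane chain, 1.09 ± 0.402 in propionic acid and 1.04 ± 0.725 in control skin.

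The same mice stood high or low for most collagen genes. Control replicate 1 had the highest value of its group for 17 of the 23 tested genes, and propionic acid replicate 3 for 19 of 23. Over all genes tested these libraries were the highest of their group for 33.6% and 37.1%. Propionic acid replicate 1 was the lowest of its group for 20 of 23. The exceptions at the top in propionic acid skin were Col7a1, Col13a1, Col17a1 and Col23a1. In control skin they were Col7a1, Col8a2, Col12a1, Col17a1, Col23a1 and Col28a1. Thus Col7a1, Col17a1 and the transmembrane chain Col23a1 were exceptions in both groups. From the lowest to the highest library a tested collagen spanned 1.80-fold to 7.88-fold, with a median of 3.58-fold.

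**Figure D4:**
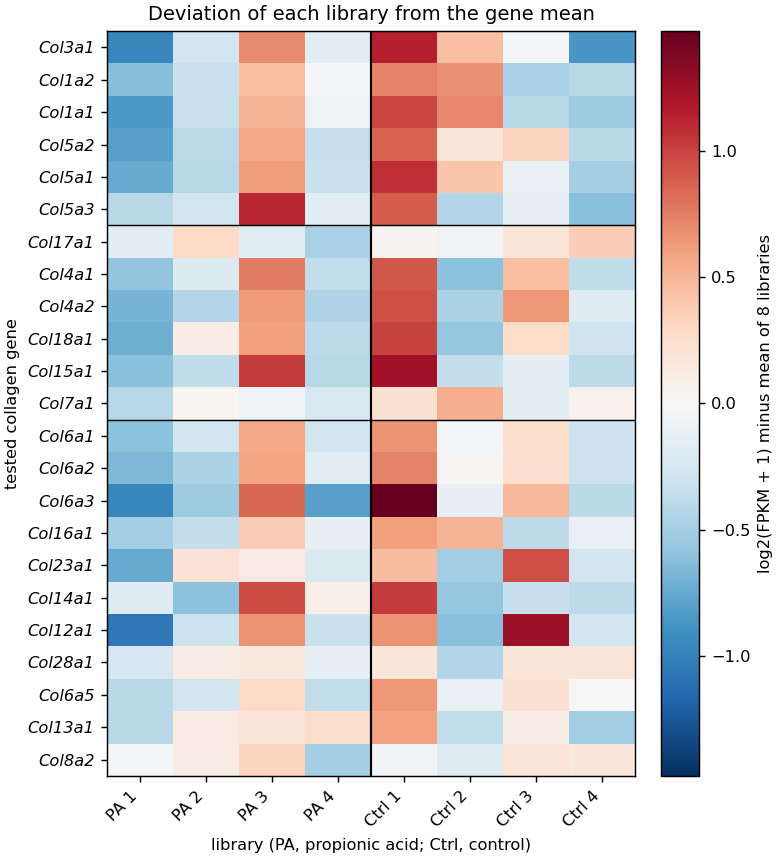
Deviation of each library from the gene's mean over 8 libraries, in log2(FPKM + 1), for the 23 tested collagen genes (rows, by class) and 8 libraries (columns, propionic acid left of control). Propionic acid replicate 3 and control replicate 1 are high in most rows and propionic acid replicate 1 is low. The rows of Col17a1, Col7a1, Col28a1 and Col8a2 are paler. Col8a2, with a mean of 1.01 FPKM, still spanned 3.57-fold over the libraries, as this scale understates fold changes of low genes.

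Within each group, fibroblast and endothelial marker sums were highest in the mouse with the highest collagen. The other mice did not keep the collagen order in these sums. Summed over 12 fibroblast markers that are no collagens, the level was 731, 600.4, 863 and 826 FPKM in propionic acid replicates 1 to 4, against 936, 623, 698 and 536 in control replicates 1 to 4, all 12 tested, 6 on the lower and 6 on the higher side. Of 10 endothelial markers, all tested and 7 on the lower side, the sum was 162, 143, 234 and 189.8 FPKM in propionic acid replicates 1 to 4, against 269.5, 131, 197 and 204 in control replicates 1 to 4. Both sums were highest of their group in propionic acid replicate 3 and control replicate 1, but in propionic acid skin both were lowest in replicate 2, not in replicate 1. Control replicate 2 had the second highest collagen sum of its group, 2134 FPKM against 1470 in control replicate 3. The endothelial sum of control replicate 2 was the lowest of its group, and its fibroblast sum was below that of control replicate 3. Leaving out propionic acid replicate 3 and control replicate 1 together put 18 of 20 tested collagen genes on the lower side. In that fit 0 passed the threshold and the median log2 fold change was -0.33. Ly6a was the largest part of the fibroblast sum in every library. It had 317 to 449 FPKM in propionic acid and 281 to 499.8 in control skin. The part of these cell types in the collagen values was not tested.

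**Figure D5:**
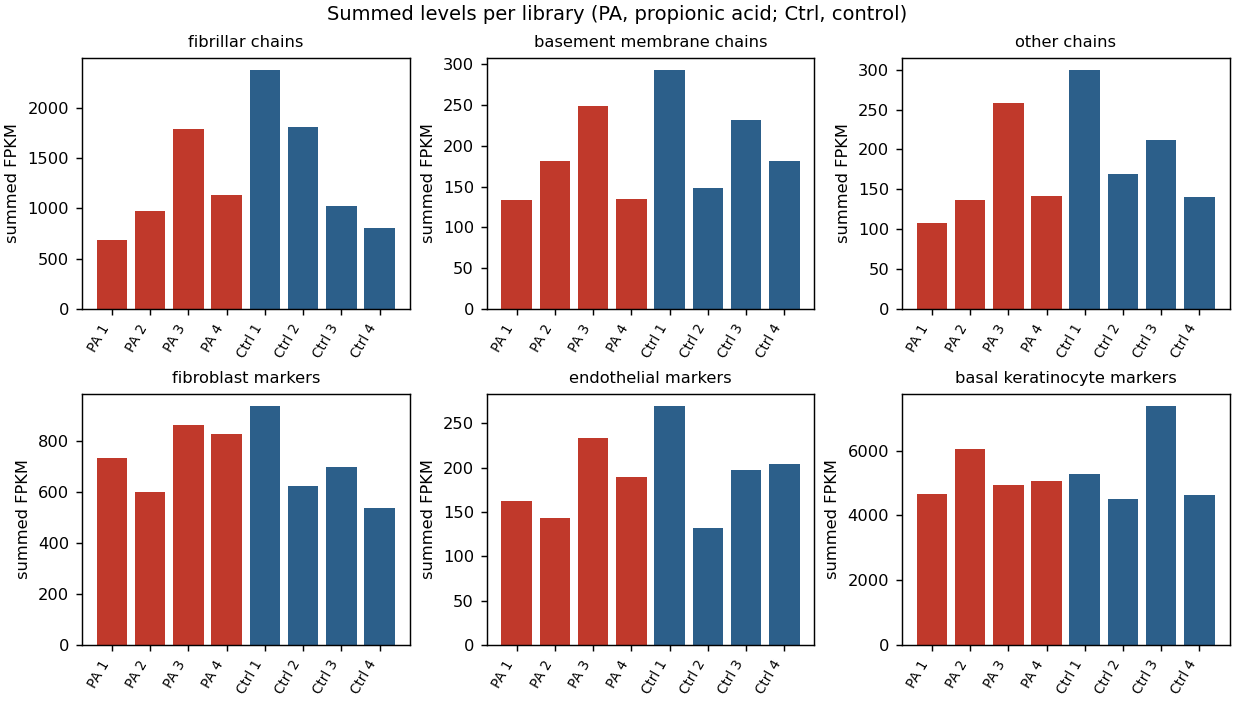
Summed FPKM per library (y axis, bars from 0; propionic acid in red left of control in blue) of fibrillar, basement membrane and other collagen chains and of fibroblast, endothelial and basal keratinocyte markers. Propionic acid replicate 3 and control replicate 1 are the highest of their groups for the 3 collagen sums and for the fibroblast and endothelial markers, but not for the basal keratinocyte markers.

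Deeper tissue varied in other ways. The 15 skeletal muscle markers summed to 4498 to 9475 FPKM in propionic acid and 4462 to 7063 in control skin, with 9 of 14 tested on the higher side and Myh7 at 0 in at least 1 library. The 12 adipocyte markers summed to 1796 to 3581 FPKM in propionic acid and 1689 to 2676 in control skin, with 11 of 12 on the higher side. Of the muscle markers tested, 5 had an unadjusted limma p under 0.05, 1 of them lower. Of the adipocyte markers 6 did, 0 of them lower, against 6.29% of all genes tested. Groups did not overlap for Ckm, Myh4, Actn3 and Cidec, all higher, and for Myh1, lower, as for 3.16% of all genes tested. Myh4 and Actn3 had the smallest limma adjusted p, 0.0998. Mural and smooth muscle markers (10, of which 9 were on the lower side) summed to 294 to 497 FPKM in propionic acid and 397 to 525 in control skin, and Schwann cell markers (8, of which 7 were tested and 2 lower) to 115 to 216 FPKM in propionic acid and 131 to 207 in control skin. Des is on both the mural and the skeletal muscle list and was the largest part of the mural sum in every library. It had 136 to 330 FPKM in propionic acid and 195 to 277 in control skin. The 7 cartilage markers summed to 5.37 to 7.97 FPKM in propionic acid and 5.95 to 9.43 in control skin. Of these only Sox9 was tested, and Acan, Matn1 and Matn3 were at 0 in at least 1 library. No member of these lists passed an adjusted p of 0.05, and their part in the collagen values was not tested.

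The 21 collagen genes below the filter averaged at most 0.840 FPKM, 8 with a lower and 13 with a higher mean in propionic acid skin. They include the cartilage chains Col2a1, Col9a1, Col9a2 and Col10a1, near or at 0 in most libraries. For 2 of them the groups did not overlap, against 2.80% of all genes in the table, and both were picked out by their values. Col11a2, a minor fibrillar chain of types XI and V (chromosome 17, 34039437 to 34066685), had 0.158, 0.197, 0.163 and 0.231 FPKM in propionic acid replicates 1 to 4, against 0.0997, 0.0868, 0.0939 and 0.0892 in control replicates 1 to 4. That is 49, 60, 50 and 72 recovered reads in propionic acid replicates 1 to 4, against 31, 27, 29 and 27 in control replicates 1 to 4. Among 16431 genes that pass a lower filter of 0.1 FPKM in 4 libraries, 3.38% had groups that did not overlap. Col11a2 passed this filter only through the 4 propionic acid libraries, as every control value was below 0.1 FPKM. The group in which it is high thus admitted it, and its test is no support for a difference. With voom on recovered reads and this lower filter, its log2 fold change was 0.99 with an SE of 0.30 and an unadjusted p of 0.00759, and the adjusted p over these genes was 0.558. In that test 6.35% of all genes had an unadjusted p under 0.05 and 0.0% passed after adjustment. Col26a1, an ill-characterised chain, had 5, 2, 3 and 3 recovered reads in propionic acid replicates 1 to 4, against 0, 1, 1 and 0 in control replicates 1 to 4, which is too few for a fold change.

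Genes that make, cut and cross-link collagen were more often lower than higher, without any passing the threshold. Of 32 processing genes 28 were tested, 24 on the lower and 4 on the higher side, 0 passed an adjusted p of 0.05, and the median log2 fold change was -0.16. An unadjusted p under 0.05 was reached by 3 on the lower side, against 2.21% of all genes tested. These were Adamts2, the protease that removes the amino-terminal propeptide of fibrillar collagens, Loxl4, a lysyl oxidase-like enzyme, and Lox, the lysyl oxidase that starts cross-linking. Adamts2 had 17.9, 19.0, 32.6 and 17.4 FPKM in propionic acid replicates 1 to 4, against 49.3, 33.6, 37.3 and 29.98 in control replicates 1 to 4. Only propionic acid replicate 3 reached the control range, and the log2 fold change was -0.79 with an SE of 0.22 (limma adjusted p = 0.488).

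Loxl4 averaged 4.004 ± 1.18 FPKM in propionic acid and 8.09 ± 2.54 in control skin (SD, n = 4 each; limma adjusted p = 0.506). Lox averaged 27.6 ± 3.96 and 36.2 ± 5.25 FPKM in propionic acid and control skin (limma adjusted p = 0.742). Unlike the collagens it was lowest in propionic acid replicate 3, at 22.1 FPKM. The collagen chaperone Serpinh1 (HSP47) averaged 72.7 ± 20.1 and 86.4 ± 30.9 FPKM in propionic acid and control skin (limma adjusted p = 0.896). P4ha1, a subunit of prolyl 4-hydroxylase, averaged 9.73 ± 1.23 FPKM in propionic acid and 9.03 ± 2.098 in control skin (limma adjusted p = 0.918).

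Partners that coat the fibrils did not lean one way. Of 15 genes 14 were tested, 7 lower and 7 higher, 0 past the threshold, with a median log2 fold change of 0.022. The smallest p values belonged to genes with higher means. Fibromodulin (Fmod), a small proteoglycan on fibrils, averaged 7.42 ± 2.84 FPKM in propionic acid and 4.70 ± 0.790 in control skin (limma adjusted p = 0.769). Its relatives Aspn and Prelp averaged 41.6 ± 7.22 and 41.5 ± 8.83 in propionic acid skin, against 30.7 ± 12.5 and 33.5 ± 6.72 in control skin.

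Among 12 collagen receptors and uptake genes, 10 were tested, 9 on the lower and 1 on the higher side, 0 past the threshold, with a median log2 fold change of -0.19. Cathepsin K (Ctsk), a protease that cleaves the collagen helix, had 329, 329, 388 and 296 FPKM in propionic acid replicates 1 to 4, against 484, 600.0, 476.5 and 422 in control replicates 1 to 4. The groups did not overlap, as for 3.16% of all genes tested. The log2 fold change was -0.56 with an SE of 0.15, and the limma adjusted p was 0.476. The inhibitory collagen receptor Lair1 averaged 2.404 ± 0.577 and 3.64 ± 1.04 FPKM in propionic acid and control skin, and the collagen-binding kinase Ddr2 11.2 ± 2.82 in propionic acid and 14.5 ± 1.89 in control skin.

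Of 16 regulators of collagen genes, 15 were found in the table and tested, the entry not found being Ctgf, an older symbol of Ccn2. In this list 12 were lower, 3 higher and 0 past the threshold, with a median log2 fold change of -0.080. Scx, a transcription factor of tendon that acts on Col1a1, averaged 1.09 ± 0.173 FPKM in propionic acid and 1.61 ± 0.410 in control skin (limma adjusted p = 0.785). Tgfbr1 and its ligand Tgfb1, of a pathway known to induce fibrillar collagen, averaged 6.92 ± 1.71 and 38.1 ± 4.54 FPKM in propionic acid skin, against 8.39 ± 1.65 and 46.3 ± 13.7 in control skin (limma adjusted p = 0.860 and 0.878).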

How the data were processed

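Bulk RNA of 8 skin samples was measured, 4 from mice given propionic acid and 4 from controls. The authors deposited 1 table of FPKM values per gene and library. Per the submitters' processing notes, reads went through CASAVA, HISAT2 2.1.0 and cutadapt, named without order, with the build mm10. For the counting program, strand setting and annotation, nothing is stated in the labels. FPKM is no count. The values of a gene stood in steps of 1 read, and read numbers could be rebuilt for each of the 25378 genes (tolerance 0.01 read, largest distance 0.00009). Genes at or above 1 FPKM in 4 of the 8 libraries entered limma 3.58.1 (R 4.3.3) on log2(FPKM + 1), with intensity trend, robust moderation, group as the only term and 2-sided tests. This scale understates fold changes of low genes. The step was tested on simulated data. Chain ratios were compared with exact permutation tests.

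The collagen genes and the lists of processing enzymes, fibril partners, receptors, regulators and cell type markers were chosen with earlier results of these data known. Values per library are given for 14 collagen genes on a fixed list and the 8 with the smallest p, which adds Col6a5. From each pathway list the 3 with the smallest p are named, with Lox, Serpinh1 and P4ha1 whatever their values. Other collagens were chosen after their values were seen. Positions come from GENCODE vM21 for GRCm38, the assembly of mm10, matched by symbol, and all 44 were found and are annotated as protein-coding. Reads of antisense genes cannot be told apart. Alternatives were another pseudocount, other filters, other scalings, library weights, voom on recovered reads, the replicate number as a block and leaving out each library.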

Additional observations from a re-analysis of the deposited data

Results flagged for a closer look

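A library stood far from the other 3 of its group, by Dixon's 95% criterion for 4 values, in 8 of 56 group and measure combinations, where chance flags about 1 in 20. The measures were the FPKM of 23 collagen genes and 5 chain ratios. Each gap below is the distance to the nearest other library as a share of the group's range. Propionic acid replicate 3 was high for Col15a1 (22.4 FPKM, next 7.87, gap 0.915), Col5a3 (12.1, next 4.42, gap 0.900), Col4a2 (53.4, next 25.2, gap 0.871), Col6a5 (1.47, next 0.663, gap 0.867) and Col6a3 (30.6, next 11.2, gap 0.856). Control replicate 1 was high for Col14a1 (10.6 FPKM, next 3.46, gap 0.915) and Col15a1 (26.2, next 9.45, gap 0.909). Control replicate 2 was low for Col28a1 (0.798 FPKM, next 1.74, gap 0.980). These genes share libraries, so the combinations are not independent.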

How the results depend on the processing

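Under every alternative run, 0 collagen genes passed the threshold and the median collagen log2 fold change stayed below 0, at -0.475 to -0.118 with 1 library left out. It was -0.484 with weights per library. With no filter on low values, which adds 21 genes of low level, it was -0.038 for all 44 genes, -0.028 for fibrillar, -0.186 for basement membrane and -0.018 for other chains. The median was -0.648 to -0.088 for fibrillar, -0.456 to -0.072 for basement membrane and -0.474 to -0.135 for other chains with 1 library left out. Over all genes tested, 0 passed in the reported fit, 1 (Ucp3) with weights per library and 0 to 2 with 1 library left out; the cause was not tested. With weights per library, 6 collagen genes had an unadjusted p under 0.05 (15.2% of all genes did) and 22 of 23 were on the lower side. With 1 library left out, 0 to 5 collagen genes had such a p, against 3.52% to 9.8% of all genes. Quantile normalization gave 1 of 23 (Col6a5), against 6.77% of all genes. Voom with the lower filter gave 2 of 35 (Col7a1 and Col11a2), against 6.35%. Col11a2 passed the lower filter only through the propionic acid libraries, where it was high. Its p under that filter is no support for a difference. Limma with that filter gave 1 of 35 (Col11a2), against 6.72%, and with no filter 2 of 44 (Col11a2 and Col26a1), against 5.32%. Without control replicate 1 and propionic acid replicate 3 it was 2 of 20 (Col5a2 and Col6a3), against 5.66%. With 1 library left out, the log2 fold change was -0.475 to 0.085 for Col4a1 and -0.161 to 0.503 for Col14a1. Log2 differences of chain ratios were -0.086 to 0.155 for Col3a1/Col1a1 and -0.124 to 0.108 for Col5a1/Col5a2. With 3 against 4 libraries, exact tests cannot reach 0.05. Same-numbered mice did not deviate together over all genes tested (correlations of -0.319, -0.081, 0.200 and -0.117). Pairs of unlike number had correlations of -0.526 to 0.605. The highest was that of propionic acid replicate 3 with control replicate 1, so their shared deviation was not limited to collagen genes. The labels do not say whether the numbers pair the mice, and low correlations cannot exclude it. With replicate number as a block, 0 genes passed, 700 had an unadjusted p under 0.05 against 792 without it, and the median collagen log2 fold change was -0.30. Leaving out both control replicate 1 and propionic acid replicate 3, and voom with the lower filter, were chosen after seeing the data. Chains of a few reads, such as Col26a1, cannot be compared at this depth.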

Other observations

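Fibroblast markers did not share one direction with the collagens. Of the 12 on the list, 3 had an unadjusted limma p under 0.05, against 6.29% of all genes tested, all 3 with higher means in propionic acid skin, and none passed after adjustment. Pi16, a marker of adventitial fibroblasts, averaged 65.1 FPKM in propionic acid and 30.7 FPKM in control skin (adjusted p = 0.769). Mfap5, a microfibril protein, averaged 15.5 and 8.77 FPKM in propionic acid and control skin (adjusted p = 0.745), and Lsp1 49.5 FPKM in propionic acid and 34.2 FPKM in control skin (adjusted p = 0.769). The broad markers Pdgfra and Pdgfrb averaged 13.6 and 12.8 FPKM in propionic acid skin, against 18.2 and 17.2 FPKM in control skin (adjusted p = 0.848 and 0.841). These genes were chosen after their values were seen.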
